A study of Mus musculus with 32 samples.

Results

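Regions bound by Ikaros, by CHD4 or by both were compared in B3 cells 30 min after the start of Ikaros induction. The members were the 4 peak lists of that time, 2 for Ikaros and 2 for CHD4, out of 24 peak lists and 32 samples in the series. Peaks that shared at least 1 bp were merged, which gave 11609 regions out of 43270 over all lists of the series. Each region was then placed by the lists that held it, and 3 classes were followed: 1361 regions called in all 4 lists (joint regions), 1240 called in both Ikaros lists and no CHD4 list (Ikaros-only) and 196 called in both CHD4 lists and no Ikaros list (CHD4-only). The remaining 8812 regions had another pattern and belong to no class.

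B3 is a mouse cell line that came from a lymphoma model and has the expression profile of a pre-B cell. All samples, those at 0 h included, carried a retroviral Ikaros-ERt2 fusion, which 500 nM 4-hydroxytamoxifen (4-OHT) given for 30 min sends into the nucleus. Ikaros was precipitated with anti-HA beads, which read the transduced protein and not the cell's own, while CHD4 was read with an antibody to the protein itself. Acetylation of histone H3 at lysine 27 (H3K27ac), found at active regulatory DNA, was read in the same cells, and the 0 h samples had received no 4-OHT. Nothing states that replicates came from separate cultures, so the spread between them may be technical.

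Ikaros (IKZF1) is a zinc finger protein that binds DNA sites with a GGGAA core and restrains proliferation and pre-B cell receptor genes as pre-B cells mature. CHD4 is the ATPase of the NuRD complex, which couples nucleosome remodelling to histone deacetylation. NuRD is brought to its places by other proteins, and Ikaros is among the proteins known to bring NuRD to DNA in lymphocytes.

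The sequences below are 300 bases of the plus strand of mm10, read from the RefSeq copy of GRCm38, at the replicate 1 Ikaros summit or, for CHD4-only regions, at the region centre. They come from the first pair of each set by fold rank and show which kinds of DNA headed each class. Capitals mark TGGGAA or its reverse complement TTCCCA, an Ikaros word.
Cpped1, joint, chr16:11686441-11686740: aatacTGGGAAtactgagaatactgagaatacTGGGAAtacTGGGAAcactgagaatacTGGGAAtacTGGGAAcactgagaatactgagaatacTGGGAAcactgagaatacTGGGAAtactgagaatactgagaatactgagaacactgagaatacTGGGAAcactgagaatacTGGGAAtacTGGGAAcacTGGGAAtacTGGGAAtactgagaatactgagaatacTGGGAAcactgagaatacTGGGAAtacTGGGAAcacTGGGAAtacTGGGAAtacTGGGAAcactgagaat
Syvn1, joint, chr19:6048866-6049165: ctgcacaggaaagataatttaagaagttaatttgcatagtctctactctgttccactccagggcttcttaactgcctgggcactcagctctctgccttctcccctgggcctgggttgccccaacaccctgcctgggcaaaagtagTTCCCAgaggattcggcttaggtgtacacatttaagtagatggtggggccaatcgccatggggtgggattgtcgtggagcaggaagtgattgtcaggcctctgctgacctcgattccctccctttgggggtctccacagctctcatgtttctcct
Ndrg3, joint without CHD4 at 0 h, chr2:156918597-156918896: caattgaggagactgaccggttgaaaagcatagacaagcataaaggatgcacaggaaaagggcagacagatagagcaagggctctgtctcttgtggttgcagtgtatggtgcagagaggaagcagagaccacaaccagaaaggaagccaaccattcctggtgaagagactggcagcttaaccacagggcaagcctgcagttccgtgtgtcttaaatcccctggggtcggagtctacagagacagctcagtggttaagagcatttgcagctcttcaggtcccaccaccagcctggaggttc
Dusp5, joint without CHD4 at 0 h, chr19:53528758-53529057: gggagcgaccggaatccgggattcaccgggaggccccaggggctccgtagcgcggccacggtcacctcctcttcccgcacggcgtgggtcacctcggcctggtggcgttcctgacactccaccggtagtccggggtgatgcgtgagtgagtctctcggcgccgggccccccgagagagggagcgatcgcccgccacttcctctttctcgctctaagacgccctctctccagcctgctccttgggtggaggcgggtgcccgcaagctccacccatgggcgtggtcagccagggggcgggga
Tlnrd1, Ikaros-only, chr7:83884268-83884567: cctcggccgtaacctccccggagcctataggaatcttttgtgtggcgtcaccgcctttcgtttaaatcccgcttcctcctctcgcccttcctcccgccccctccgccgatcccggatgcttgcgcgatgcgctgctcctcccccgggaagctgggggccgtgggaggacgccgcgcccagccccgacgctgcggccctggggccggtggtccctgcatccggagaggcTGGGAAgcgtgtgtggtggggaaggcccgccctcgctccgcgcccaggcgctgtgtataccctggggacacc
Gm47283, CHD4-only, chrY:90789147-90789446: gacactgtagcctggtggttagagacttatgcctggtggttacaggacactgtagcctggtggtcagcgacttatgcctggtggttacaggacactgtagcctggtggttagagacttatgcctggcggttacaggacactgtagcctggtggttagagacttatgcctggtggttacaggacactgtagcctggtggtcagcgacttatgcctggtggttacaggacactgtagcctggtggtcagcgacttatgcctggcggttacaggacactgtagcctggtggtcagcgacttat
Gm21887, CHD4-only, chrX:170014272-170014571: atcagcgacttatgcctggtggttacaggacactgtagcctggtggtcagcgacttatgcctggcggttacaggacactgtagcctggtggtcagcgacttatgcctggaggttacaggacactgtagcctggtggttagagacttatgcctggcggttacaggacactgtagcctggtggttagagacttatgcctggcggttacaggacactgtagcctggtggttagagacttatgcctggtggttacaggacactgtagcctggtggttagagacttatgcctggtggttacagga
The first joint sequence is a tandem array of TGGGAA and closely related words, with 18 copies in the window and 99 in the whole region. The Syvn1 and Tlnrd1 windows held 1 copy each, and the Ndrg3 and Dusp5 windows held 0. The windows of the X and Y chromosomes are a different tandem repeat in the pseudoautosomal region. All 251 words of 50 bases from the Y window were found in the X region, so reads cannot be placed on one or the other copy, and these 2 entries are not independent.

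Labels and libraries were checked first. H3K27ac peaks in both 30 min lists lay within 1 kb of the transcription start site (TSS) of 10 of 10 pre-B cell markers, Cd79a, Vpreb1, Igll1, Rag1, Ebf1 and Pax5 among them. The mark was present at 1 of 5 T cell markers (Cd3d), 0 of 5 myeloid, 1 of 5 erythroid (Klf1) and 0 of 5 liver and muscle markers, against 45.0% of all protein-coding genes. The Ikaros lists held 9181 and 5373 peaks in replicates 1 and 2, and the CHD4 lists held 4081 and 3369. The commonest background in the Ikaros lists was 2.54 fragments per base in replicate 1 and 1.98 in replicate 2, so the longer list had the higher background. The peak-calling settings and the input used at 30 min are not given, so this background is not shown to be the depth of the Ikaros library. For the CHD4 lists the background is unknown, since a broad peak's values do not give it back. Ikaros peaks were called in narrow mode and CHD4 peaks in broad mode, so a difference between the targets and a difference between the modes cannot be told apart.

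Many Ikaros regions also carried a CHD4 call, in a share that depended on the CHD4 lists asked. Of 3663 regions in both Ikaros lists, 1361 were in both CHD4 lists, 1062 in 1 and 1240 in neither. Within a replicate, 33.0% of Ikaros regions in replicate 1 and 38.1% in replicate 2 carried a CHD4 peak, and without CHD4 replicate 1 there were 1756 joint against 1923 Ikaros-only regions. Seen from the regions in both CHD4 lists, 1361 had both Ikaros calls, 349 had 1 and 196 had none. A single list accounted for 3843 regions of Ikaros replicate 1, 1072 of Ikaros replicate 2, 762 of CHD4 replicate 1 and 611 of CHD4 replicate 2. A region missing from a list was below that library's threshold and not shown to be free of the protein. The counts also rest on which libraries are asked: without Ikaros replicate 1, Ikaros replicate 2 or CHD4 replicate 1 the Ikaros-only class held 2397, 5133 and 1923 regions, and without Ikaros replicate 1, CHD4 replicate 1 or CHD4 replicate 2 the CHD4-only class held 463, 843 and 999.

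**Figure D1:**
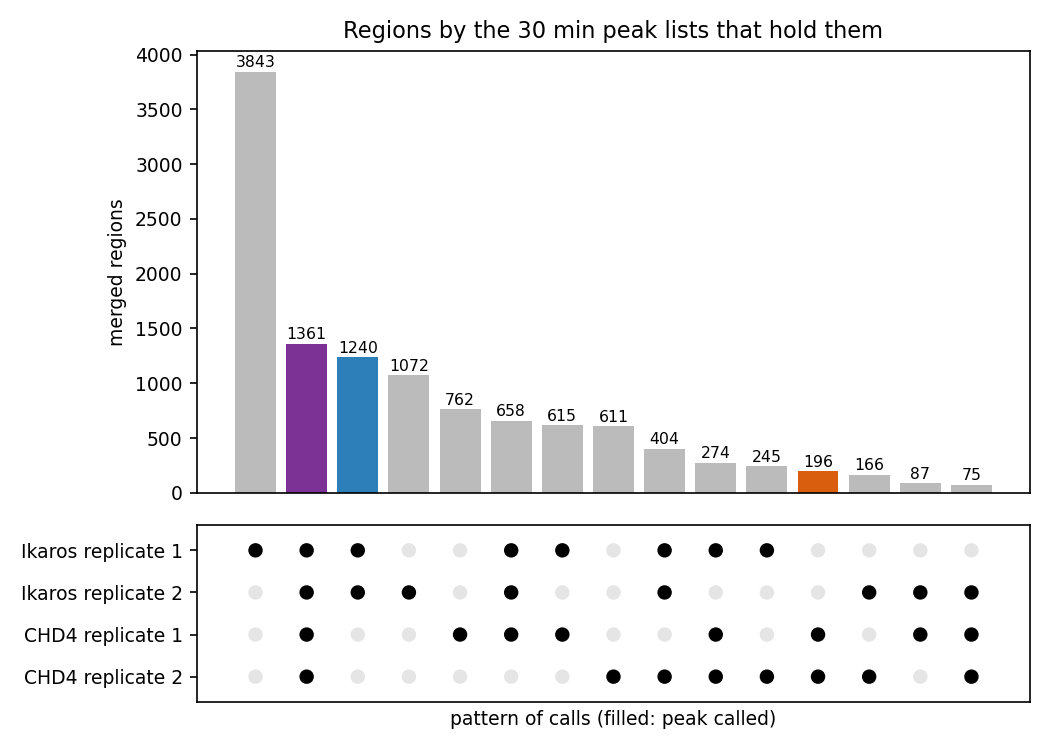
Bars give the number of merged regions (vertical axis) for each pattern of calls in the 4 lists at 30 min, and filled dots under a bar show the lists that held a peak. The coloured bars are the classes followed here, with 1361 joint, 1240 Ikaros-only and 196 CHD4-only regions, and the tallest bar is the 3843 regions of Ikaros replicate 1 alone.

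Joint regions lay at promoters less often than Ikaros-only regions. Of the joint regions, 358 (26.3%, Wilson 95% interval 24.0% to 28.7%, counting error only) had their centre within 1 kb of a TSS, against 669 Ikaros-only regions (54.0%, 51.2% to 56.7%) and 45 CHD4-only regions (23.0%, 17.6% to 29.3%). Over all merged regions the share was 44.8%. The median distance to a TSS was 4345 bp for joint, 751 bp for Ikaros-only and 5430 bp for CHD4-only regions. From replicate 1 and replicate 2 lists alone it was 2786 and 4120 bp, 667 and 1682.5 bp, and 3961.5 and 3133 bp for the classes in that order. When the classes were built from the replicate 1 lists alone and the replicate 2 lists alone, the promoter share was 37.1% and 28.1% for joint regions and 55.9% and 42.9% for Ikaros-only regions. On that measure the joint minus Ikaros-only difference was -16.8 ± 2.79 percentage points (SD, n = 2), and with both replicates it was -27.6 points, or -17.8 without Ikaros replicate 1 and -17.4 without CHD4 replicate 2. Joint and CHD4-only regions were not ordered, because the joint minus CHD4-only difference was 7.24 points in replicate 1 and -4.41 points in replicate 2.

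The same classes were built for each of the 8 pairs of an Ikaros and a CHD4 list in the series (4 times, 2 replicates), so that the difference could be tested over samples. The joint class had the lower promoter share in 8 of 8 pairs, with differences of -24.6 to -6.77 points (mean 36.0% against 51.7%, exact two-sided sign-flip permutation test over pairs, p = 0.00781, the smallest 8 pairs allow, adjusted p = 0.00938 over 6 comparisons). Against CHD4-only regions the difference was 5.12 ± 9.54 points (SD, n = 8) and did not pass (higher in 5 of 8 pairs, exact permutation p = 0.188, adjusted p = 0.188). Pairs of one time course may share cells, and then this p is too small. In position, 41.1% of joint regions were intergenic, 46.6% intronic and 12.3% exonic, against 33.6%, 41.8% and 24.6% of Ikaros-only regions and 47.4%, 44.4% and 8.16% of CHD4-only regions. From replicate 1 and replicate 2 lists alone, the joint minus CHD4-only difference turned for exonic (5.39 and -1.26 points) and intronic shares (-2.59 and 3.63). It kept its sign for the intergenic share, and the joint minus Ikaros-only differences kept theirs for every position.

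**Figure D2:**
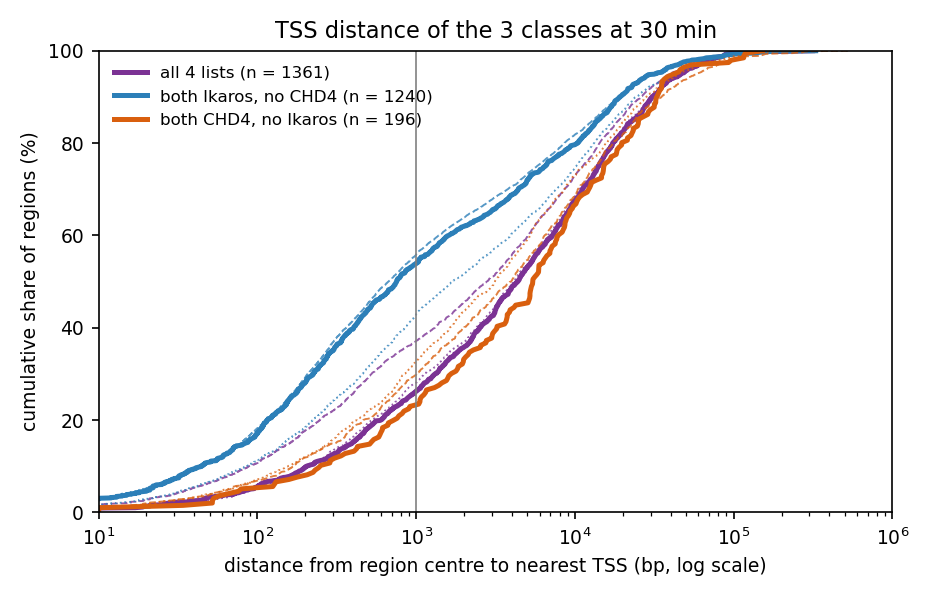
Cumulative share of regions (vertical axis, percent) against the distance from the region centre to the nearest TSS (horizontal axis, bp, log scale), with thick lines for the classes from both replicates, dashed lines for replicate 1 alone and dotted lines for replicate 2 alone. At the grey line of 1 kb the Ikaros-only curve stands at 54.0%, the joint curve at 26.3% and the CHD4-only curve at 23.0%.

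The same contrast stood in the lists before they were merged. Promoter peaks made up 48.8% and 36.5% of the Ikaros lists (42.6% ± 8.72, SD, n = 2) and 34.9% and 30.0% of the CHD4 lists (32.5% ± 3.51), with peaks placed by their summit for Ikaros and their centre for CHD4. The promoter shares of the 2 targets did not overlap, with 36.5% the lower of Ikaros and 34.9% the higher of CHD4. At 30 min the CHD4 minus Ikaros difference of -10.2 points had an exact two-sided permutation p = 0.33, the smallest that 2 lists against 2 can give, and was -4.0 points without Ikaros replicate 1 and -16.3 without Ikaros replicate 2. Over all 4 times, with 8 lists against 8 exchanged within a time, the difference was -11.7 points (34.0% against 45.7%, exact permutation p = 0.00154, adjusted p = 0.00309 over 2 shares).

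CHD4 calls became more frequent with the strength of the Ikaros peak, and at every strength they were more frequent away from promoters. Ikaros regions of each replicate were divided into 5 bins by the percentile rank of their fold enrichment, which is the authors' peak signal over local background. In the weakest bin a CHD4 peak of the same replicate covered 19.2% of 902 distal and 11.2% of 872 promoter regions in replicate 1, and 24.1% of 681 and 18.7% of 402 in replicate 2. In the strongest bin the values were 77.5% of 846 distal and 50.1% of 780 promoter regions in replicate 1, and 76.9% of 619 and 53.3% of 330 in replicate 2. The gap between distal and promoter regions in each of the 5 bins had the same sign in both replicates.

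Over the 8 library pairs, CHD4 was called at 71.1% of distal and 47.4% of promoter regions among Ikaros regions with a fold rank of 80 or more, and at 31.5% and 20.5% of the others. Distal regions were higher in 8 of 8 pairs in each set, by 23.7 ± 4.28 points in the first (exact permutation p = 0.00781, adjusted p = 0.00938) and by 11 ± 4.08 points in the second (SD, n = 8, exact permutation p = 0.00781, adjusted p = 0.00938). Distal regions were thus the more often called for CHD4 within either range of Ikaros fold. Position and fold were both read from the merged region, by its centre and its highest Ikaros fold. A CHD4 peak that joins a region can change both, and joint regions were wider (median 1593 bp against 624.5 bp for Ikaros-only). From region edges the promoter share was 35.3% for joint and 57.4% for Ikaros-only regions. The bins and pairs were not redone with edges or Ikaros summits.

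**Figure D3:**
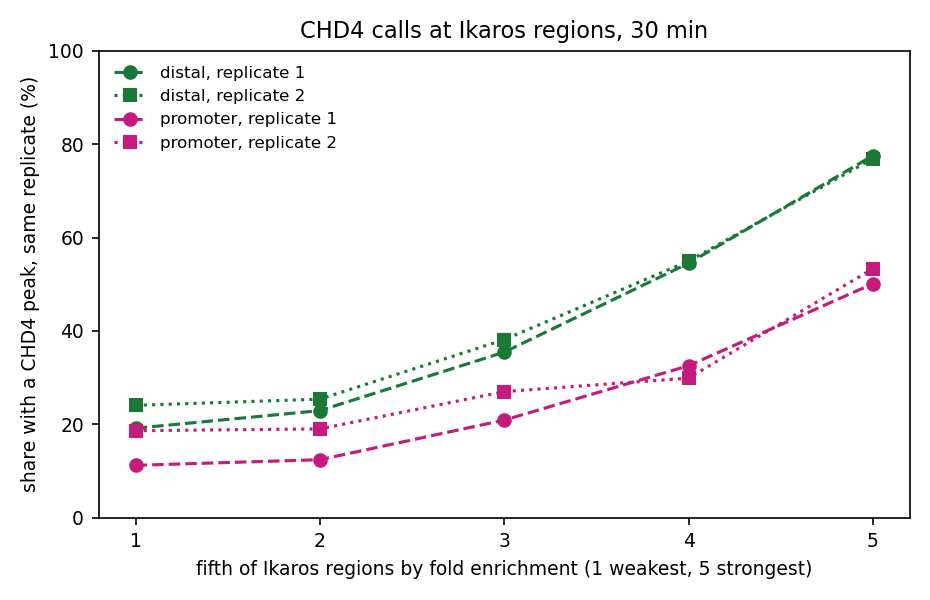
Share of Ikaros regions with a CHD4 peak of the same replicate at 30 min (vertical axis, percent) in 5 bins of Ikaros fold enrichment (horizontal axis, 1 weakest to 5 strongest), with circles for replicate 1, squares for replicate 2, green for distal and pink for promoter regions. The distal lines climb to 77.5% and 76.9% and the promoter lines to 50.1% and 53.3%, with the distal line above the promoter line of the same replicate in every bin.

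By rank within their own list, joint regions held the stronger peaks of both targets. The median Ikaros fold of joint regions was 6.23 in replicate 1 and 5.70 in replicate 2, which is the 82.1st and 75.4th percentile of those lists. Ikaros-only regions had medians of 4.81 and 4.69, at the 55.2nd and 49.6th percentile. The median CHD4 fold was 3.39 and 3.54 in joint regions, at the 66.4th and 61.5th percentile, and 3.12 and 3.38 in CHD4-only regions, at the 31.8th and 41.1st. A region merged from several peaks of a list was given the highest of their folds, and the part of this in the gaps was not tested. Joint regions were also wider, at a median of 1593 bp against 624.5 bp for Ikaros-only and 976 bp for CHD4-only regions. From replicate 1 and replicate 2 lists alone the medians were 1024 and 1014.5 bp, 384 and 395.5 bp, and 438 and 496 bp in that order.

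Summits and CHD4 peaks were then placed within joint regions, where an overlap of the merged peaks is given by the rule. The replicate 1 Ikaros summit was inside a CHD4 peak of replicate 1 in 1179 of 1361 regions (86.6%), and the replicate 2 summit inside a CHD4 peak of replicate 2 in 1131 (83.1%). The median distance from summit to CHD4 peak centre was 266 bp and 258 bp, for CHD4 peaks of median width 1001 bp and 917 bp, and 38.9% and 40.6% of summits lay within 200 bp of that centre. For a summit inside the peak the offset is bounded by the peak's width, so no closeness beyond the overlap is read from these values. The 2 Ikaros replicates placed their summits a median of 120 bp apart in the same regions.

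Nearly all joint regions carried the active mark. H3K27ac peaks of both 30 min lists overlapped 1332 joint regions (97.9%), 1148 Ikaros-only regions (92.6%) and 157 CHD4-only regions (80.1%), against 88.2% of all merged regions. Without Ikaros replicate 1 the 3 shares were 97.8%, 85.4% and 90.3%, so the order of Ikaros-only and CHD4-only regions turned. From replicate 1 or replicate 2 lists alone the joint class was higher than the Ikaros-only class by 8.38 ± 0.629 points (SD, n = 2) and higher than the CHD4-only class by 13.3 ± 4.24 points. Over the 8 library pairs the joint share was higher in 8 of 8, by a mean of 13.9 points over Ikaros-only regions and 21.7 over CHD4-only regions (exact permutation p = 0.00781, adjusted p = 0.00938 for each). With peaks of −log10 q of at least 3 the order of joint and Ikaros-only regions turned, and the difference was -4.89 points. The difference from Ikaros-only regions also depended on the libraries, at 12.4 points without Ikaros replicate 1, 10.4 without Ikaros replicate 2 and 2.62 without CHD4 replicate 1. With H3K27ac read at the region centre alone, where width has no part, it was 7.08 points. Taken per list rather than per class, the share of peaks with H3K27ac was 92.3% and 91.9% for CHD4 and 91.3% in each Ikaros list at 30 min, a difference of 0.758 points (exact permutation p = 0.33), and over all times 1.74 points (exact permutation p = 0.299, adjusted p = 0.299).

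Only 15 joint regions had H3K27ac in neither 30 min list, and both the strongest and the weakest joint regions were among them. The strongest lay near Cpped1, Nr3c2 and Tiam1. The Nr3c2 region held 43 copies of TGGGAA, another region on chromosome X (chrX:61183658-61186194) held 54, and the Tiam1 region held 0. At the other end were 5 regions with folds of 1.1 to 2.2 in every list, on chromosomes 2, 9, 11 and 14. In 4 of these 5, low folds went with a −log10 p of 200 or more in at least 1 list. Leaving out the 6 merged regions with a −log10 p of 200 or more left 1356 joint and 1239 Ikaros-only regions.

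The 5 joint regions with the highest mean fold rank were near Cpped1, Syvn1, Nr3c2, Tiam1 and Spry4. The Cpped1 region (chr16:11685322-11688733, intronic) had Ikaros folds of 13.8 and 18.1 and CHD4 folds of 5.75 and 6.16. Its nearest coding TSS was 222368 bp away, so the gene only locates it. The Syvn1 region (chr19:6048607-6049594) lay in an intron 1997 bp from the TSS of this ubiquitin ligase of the endoplasmic reticulum. It had Ikaros folds of 15.3 and 11.1, CHD4 folds of 5.18 and 5.09, and H3K27ac in both lists. The Nr3c2 region (chr8:77220448-77222062), 93242 bp from the TSS of the mineralocorticoid receptor gene, had Ikaros folds of 13.8 and 11.1 and the highest CHD4 fold of replicate 1, 7.26, with 4.92 in replicate 2. The Tiam1 region (chr16:89905089-89905692) lay in an intron 13594 bp from a TSS of this activator of the GTPase Rac, with Ikaros folds of 11 and 14.1 and CHD4 folds of 4.65 and 5.40. Spry4, an inhibitor of receptor tyrosine kinase signalling, had an intronic region with Ikaros folds of 14.0 and 10.1 and CHD4 folds of 4.53 and 4.57. Each of the 5 ranked at percentile 98.8 or higher in every list, and each carried Ikaros in both 0 h lists.

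CHD4 was already called before 4-OHT at many joint regions, and the share depended on the lists used. Both CHD4 0 h lists covered 784 of the 1361 joint regions (57.6%), 1 covered 444 (32.6%) and neither covered 133 (9.77%), against 15.3%, 27.4% and 57.3% of all merged regions. The share in both 0 h lists was 39.2% for joint regions of the replicate 1 lists alone, 46.0% for those of replicate 2 alone and 46.5% without CHD4 replicate 2. The share in neither was 24.1% and 18% for the replicate 1 and replicate 2 lists alone. By 0 h library, 60.9% of joint regions were in the replicate 1 list of 2488 peaks and 86.9% in the replicate 2 list of 6000 peaks, and these 0 h lists differ in length. Among Ikaros-only regions, 104 (8.39%) were in both 0 h CHD4 lists and 792 (63.9%) in neither. Among CHD4-only regions, 80 (40.8%) were in both and 41 (20.9%) in neither. Of the CHD4-only regions of the replicate 1 and replicate 2 lists alone, however, 16.6% and 18.7% were in both and 52.1% and 45.7% in neither. From replicate 1 and replicate 2 lists alone, the share in both 0 h CHD4 lists was higher in joint than in Ikaros-only regions by 33.4 and 35.9 points. The CHD4 calls of 30 min set these classes, so this difference is not independent of the class rule. Joint regions were also wider (median 1593 bp against 624.5 bp with both replicates), and the part of width in it was not tested.

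Ikaros itself was also called at 0 h at these places. Both Ikaros 0 h lists covered 1070 joint regions (78.6%), 714 Ikaros-only regions (57.6%) and 19 CHD4-only regions (9.69%), against 38.6% of all merged regions. In the replicate 1 and replicate 2 lists alone the shares were 67.2% and 67.5% for joint, 36.1% and 44.4% for Ikaros-only and 12.7% and 19.3% for CHD4-only regions. Of the joint regions, 677 (49.7%) were called for both proteins in all 4 lists of 0 h, and 31 (2.28%) for neither protein in any of them. The 133 joint regions without CHD4 at 0 h included 80 with Ikaros in both 0 h lists.

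**Figure D4:**
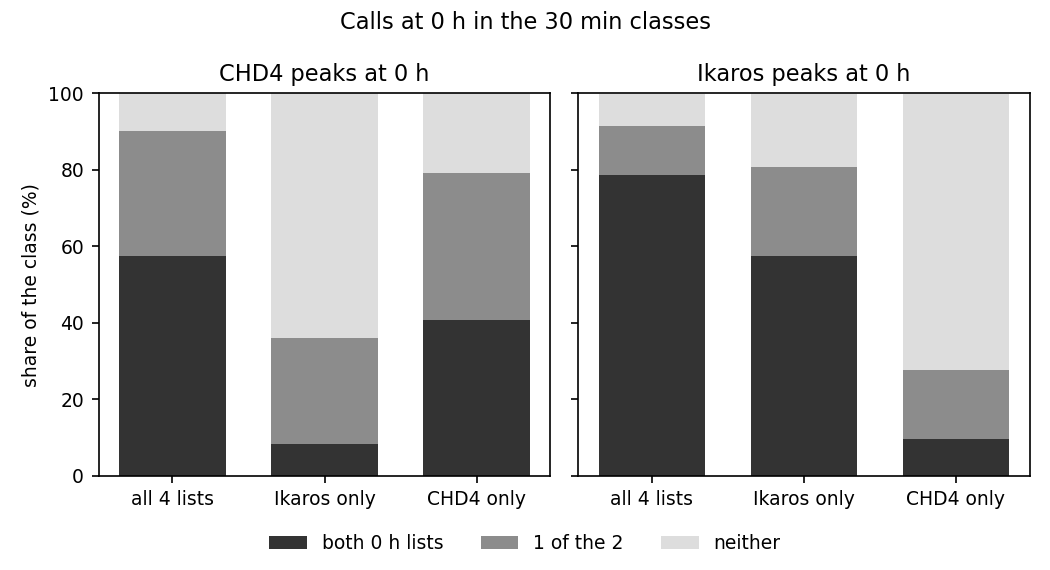
Share of each class at 30 min (vertical axis, percent) that overlapped a CHD4 peak (left) or an Ikaros peak (right) in both, 1 or neither of the 0 h lists. Both CHD4 lists of 0 h held 57.6% of joint, 8.39% of Ikaros-only and 40.8% of CHD4-only regions, and both Ikaros lists held 78.6%, 57.6% and 9.69%.

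Joint regions without CHD4 at 0 h were nearer to promoters, weaker and narrower than those with it. Their promoter share was 36.8% (49 of 133), against 30.0% for 1 list and 22.4% (176 of 784) for both lists. Their median Ikaros fold at 30 min was 5.65 and 5.37 in replicates 1 and 2, against 6.69 and 5.70 where CHD4 was in both 0 h lists, and their median CHD4 fold was 3.30 and 3.48 against 3.44 and 3.56. Their median width was 1134 bp, against 1431 bp for 1 list and 1822 bp for both lists. A weaker region is more easily missed by a list, and a narrower one offers less length for an overlap. These 133 regions thus cannot be separated from regions just below the 0 h thresholds. At 1 h, CHD4 was called by both lists at 48.1% of them and at 87.4% of the regions with both 0 h calls.

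The 5 strongest joint regions called in neither CHD4 0 h list were near Ndrg3, Dusp5, Slc35e4, Il12a and Cxcr4, and all 5 had H3K27ac in both lists and Ikaros in both 0 h lists. The Ndrg3 region (chr2:156918053-156919052) was intergenic, 16452 bp from the TSS, with Ikaros folds of 13.8 and 17.1 and CHD4 folds of 4.13 and 4.22, and both CHD4 lists held it at 1 h and at 2 h. Dusp5 encodes a phosphatase that inactivates ERK. Its region (chr19:53528313-53529075) was exonic, 415 bp from the TSS, with Ikaros folds of 12.2 and 10.4 and CHD4 folds of 4.66 and 4.05, and at 2 h it was in neither CHD4 list. Slc35e4, a transporter-family gene, had an exonic region 454 bp from its TSS (chr11:3913752-3914667) with Ikaros folds of 13.3 and 8.48 and CHD4 folds of 4.38 and 3.83, which no CHD4 list held at 1 h or 2 h. Il12a, a subunit of the cytokine IL-12, had an intergenic region at 13705 bp (chr3:68676229-68677649) with CHD4 folds of 4.10 and 4.17. Cxcr4, the chemokine receptor that keeps B-cell precursors in the marrow, had one 928 bp from its TSS (chr1:128590776-128591948) with Ikaros folds of 7.80 and 6.71 and CHD4 folds of 3.71 and 4.32. The Il12a and Cxcr4 regions were in both CHD4 lists of 1 h and of 2 h.

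The strongest Ikaros-only regions given here were at gene starts. They lay 12 bp from the TSS of Tlnrd1 (chr7:83883885-83884749, Ikaros folds 10.2 and 10.1), 56 bp from Mzt2 (chr16:15862875-15863633, 9.42 and 9.72), 203 bp from Nhp2 (chr11:51619360-51619703, 10.2 and 8.82) and 202 bp from Cep57 (chr9:13826184-13828433, 13.4 and 8.12). Mzt2 and Cep57 serve microtubule organisation at the centrosome, and Nhp2 is a protein of the H/ACA ribonucleoproteins that modify ribosomal RNA. These 4 had H3K27ac in both 30 min lists. Their Ikaros folds overlapped those of the named joint regions, and only the Tlnrd1 region among them had a CHD4 call at 0 h, in 1 list. The Tlnrd1 and Cep57 regions were in both CHD4 lists of 2 h.

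CHD4-only regions were few and weakly enriched. Besides the repeat copies on the sex chromosomes, near Gm47283 and Gm21887, the first were near Rabepk (chr2:34800637-34802086, CHD4 folds 3.87 and 4.4) and Cdh17 (chr4:11763024-11764871, 4.03 and 3.94). These 4 lay between 1450 and 5755 bp from the nearest coding TSS and had H3K27ac in both lists. The Rabepk region was in both Ikaros lists of 1 h and of 2 h. Of the whole class, both Ikaros lists held 37.2% at 1 h and 41.8% at 2 h, after 9.69% at 0 h. The share over all merged regions also rose, from 38.6% at 0 h to 61.5% at 1 h and 58.5% at 2 h, and the later Ikaros lists were longer (12447 to 14874 peaks, against 7822 and 9527 at 0 h).

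Both CHD4 lists covered 76.7% of joint regions at 1 h and 66.2% at 2 h, 61.7% and 56.6% of CHD4-only regions and 15.8% and 14.5% of Ikaros-only regions, against 24.1% and 22.3% of all merged regions. For CHD4-only regions of the replicate 1 and replicate 2 lists alone the shares were lower, at 26.7% and 32.4% at 1 h and 27% and 31.7% at 2 h. Both Ikaros lists covered 97.1% and 96.9% of joint regions and 83.7% and 77.0% of Ikaros-only regions.

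The base composition and the Ikaros word were read in 300 bp at each region centre. TGGGAA or TTCCCA was present in 30.7% of joint, 33.9% of Ikaros-only and 18.9% of CHD4-only windows, against 24.7%, 27.2% and 18.6% of windows 5 kb away. The word was thus more frequent by 6.01 and 6.69 points in the classes with Ikaros and by 0.321 points in CHD4-only regions. Over all merged regions it was in 30.4%, against 25.3% of windows 5 kb away, so the joint share was near that of all regions. Split by position, it was in 30.8% of distal and 30.4% of promoter joint windows. In 200 bp at the Ikaros summits of replicates 1 and 2, joint regions held it in 23.9% and 24.0% and Ikaros-only regions in 26.4% and 27.3%. In the windows 5 kb from these summits the shares were 18.5% and 18.7% for joint and 20.4% and 18.6% for Ikaros-only regions. A word match is a description and not a site, and the shared core GGAA also belongs to ETS-family factors. Median GC content was 50.7%, 52.7% and 48.5% for joint, Ikaros-only and CHD4-only windows. It was 47%, 45% and 46.3% in the windows 5 kb away, and the part of this in the word shares was not tested. The observed to expected ratio of CpG was 0.393 in promoter joint windows and 0.639 in promoter Ikaros-only windows, and 0.231 and 0.253 in the distal ones, so the joint promoters had the lower ratio.

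Joint regions lay near many genes of the B lineage. A joint region lay within 20 kb of a TSS of 1175 of 21938 protein-coding genes (5.36%) and within 1 kb for 290 (1.32%). For Ikaros-only regions the background was 7.77% within 20 kb and 3.19% within 1 kb, for CHD4-only regions 0.925% and 0.191%, and for all regions in both Ikaros lists 16% within 20 kb. Many genes of the lists are active in these cells, and among the 9864 genes with H3K27ac at the TSS the shares within 20 kb were 9.82%, 14.3% and 1.69% for the 3 classes and 29.1% for all regions in both Ikaros lists. No list was tested, and all lists were chosen with results of these data known.

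Of 24 B-lineage transcription factors, 15 had a joint region within 20 kb, 5 an Ikaros-only region and 2 a CHD4-only region (Ebf1 at 7540 bp and Spi1 at 613 bp), and 19 had a region of both Ikaros lists. The CHD4-only region of Ebf1 was in both Ikaros lists of 0 h, and that of Spi1 was in neither. Within 1 kb of the TSS, joint regions lay at Ebf1, Spi1, Runx1, Bcl11a and Mef2c. The Runx1 region (chr16:92695959-92698948) had Ikaros folds of 11.3 and 7.38 and CHD4 folds of 3.74 and 4.15. Ebf1 and Pax5, which specify and hold B-cell identity, had 3 and 2 joint regions. Ikzf1 had a joint region in an intron 3603 bp from a TSS, with Ikaros folds of 7.28 and 7.04 and CHD4 folds of 3.41 and 3.59, and Ikzf3, its close relative, had one 18572 bp away. Stat5a and Stat5b, which transmit the IL-7 signal, share 1 joint region (chr11:100842642-100843851) with Ikaros folds of 14.7 and 6.84 and CHD4 folds of 5.25 and 3.77. Ets1 had one in an intron (chr9:32705365-32706526) with Ikaros folds of 13.5 and 10.4 and CHD4 folds of 4.59 and 3.52. Zeb2 and Myb had an Ikaros-only region within 1 kb of a TSS and no joint region within 20 kb.

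Of 19 genes of the pre-B cell receptor and its signalling, 11 had a joint region within 20 kb and 3 an Ikaros-only region, and 0 had a CHD4-only region, while 15 had a region of both Ikaros lists. Igll1 and Vpreb1, the surrogate light chain genes, lie side by side and share 2 joint regions. The stronger (chr16:16863692-16867525, 3834 bp wide) had Ikaros folds of 12.7 and 6.96 and CHD4 folds of 3.82 and 3.93, and the other (chr16:16855265-16857284) had Ikaros folds of 4.78 and 6.37 and CHD4 folds of 3.22 and 3.26. Both were in both CHD4 0 h lists. Cd79a, a signalling chain of the receptor, had a joint region 470 bp from its TSS with Ikaros folds of 9.42 and 6.97 and CHD4 folds of 3.49 and 3.96. Blnk and Plcg2, an adaptor and a phospholipase of the same pathway, and the kinase Lyn had one within 1 kb. Plcg2 had 3 within 20 kb. Syk, the kinase that starts the signal, had 2, of which the one at 1268 bp had Ikaros folds of 11 and 6.71 and CHD4 folds of 4.33 and 3.74. Ptpn6, a phosphatase that dampens it, had an Ikaros-only region 21 bp from a TSS.

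**Figure D5:**
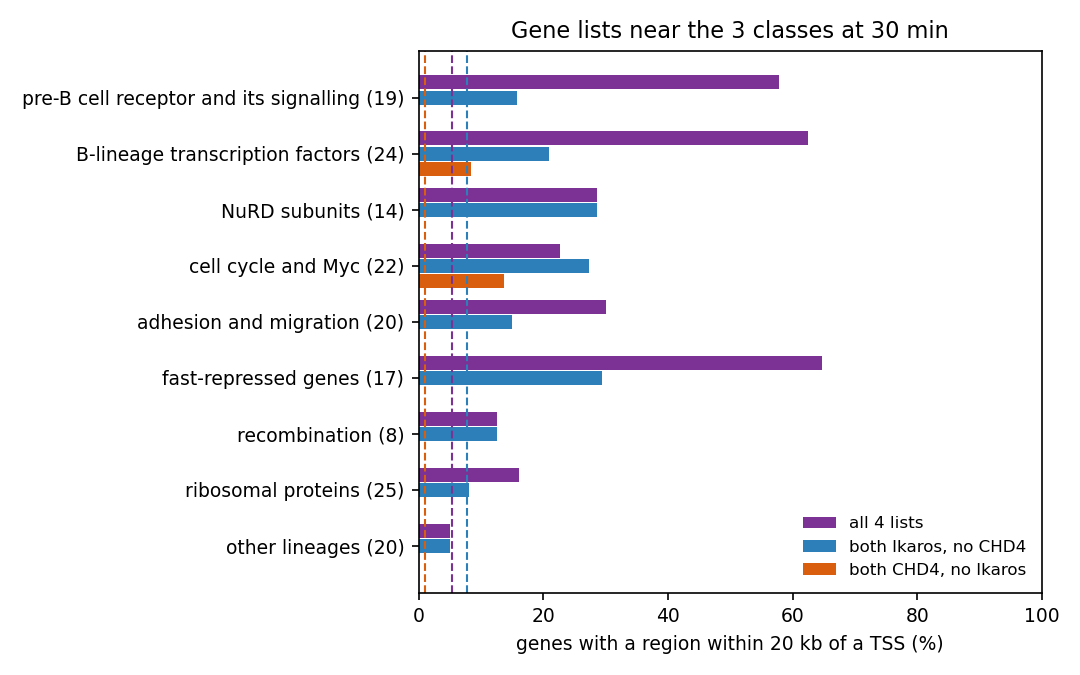
Percent of the genes of each list (horizontal axis, list size in brackets) with a region of a class centred within 20 kb of a TSS at 30 min, with dashed lines at the share over all protein-coding genes. Joint regions lay near 15 of 24 B-lineage transcription factors and 11 of 19 pre-B cell receptor genes, against 5.36% of all genes, and near 1 of 20 genes of other lineages.

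Of 17 genes taken from those that the study named as rapidly repressed, not all of them, 11 had a joint region within 20 kb, 5 an Ikaros-only region and 0 a CHD4-only region. The study named them from experiments in these cells, so the count is not independent evidence. Within 1 kb of a TSS, joint regions lay at Bcl11a, Ccnd2, Myc and Serpinf1, and Ikaros-only regions at Bcl11a, Ccnd1 and Ccnb1. The 22 cell cycle genes and Myc family members had a joint region near 5, an Ikaros-only region near 6 and a CHD4-only region near 3. Ccnd2 and Ccnd3, D-type cyclins, had joint regions, that of Ccnd2 lying 8 bp from a TSS (Ikaros folds 5.65 and 3.63, CHD4 folds 3.27 and 3.51). Ccnd1, Ccnb1 and Cdk1 had Ikaros-only regions between 8 and 110 bp from a TSS. At 0 h, both CHD4 lists held the Ccnb1 region, 1 held the Cdk1 region and neither held the Ccnd1 region. Myc had a joint region 86 bp from a TSS (Ikaros folds 7.06 and 6.37, CHD4 folds 3.13 and 3.48) and an Ikaros-only region at 1454 bp. The CDK inhibitor genes Cdkn1a and Cdkn2a each had a CHD4-only region, 19690 and 9828 bp from a TSS. Both genes also had another region, held by both Ikaros lists, at 12148 and 3345 bp.

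Of 20 adhesion and migration genes, 6 had a joint region (Itga5, Itgal, Selplg, Cxcr4, Icam1 and Pxn) and 3 an Ikaros-only region. The strongest by Ikaros fold was the Selplg region at 15569 bp, with Ikaros folds of 8.76 and 7.27 and CHD4 folds of 4.20 and 3.83. Among 14 NuRD subunit genes 4 had a joint region, Chd4 itself (4251 bp away, Ikaros folds 8.19 and 5.03, CHD4 folds 3.56 and 3.92), Chd3, Mta3 and Gatad2a, and 4 had an Ikaros-only region. Of 25 ribosomal protein genes 4 had a joint region, of 8 recombination genes 1 (Hmgb1, at 19766 bp), and of 20 genes of other lineages 1 (Elane, at 8240 bp). The region 8171 bp from Rps19 is the one at the TSS of Cd79a.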

How the data were processed

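ChIP-seq of B3 cells covered 3 targets (Ikaros, CHD4 and H3K27ac), with 2 replicates per target at 0 h, 30 min, 1 h and 2 h. Cells were crosslinked with DSG and formaldehyde and sheared by sonication or MNase. The 8 input libraries were not analysed here.

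According to the methods and the submitters' processing notes, the authors aligned reads to mm10 with Bowtie2 2.4.2, marked duplicates with Picard 2.23.7 and called peaks with MACS2 2.2.7.1, in broad mode for CHD4. The peak-calling settings at 30 min, the input used and any blacklist applied to the peaks are not given in the sources used here. The deposited lists hold 1 row per peak with a display score, a fold enrichment (a ratio to local background), a p-value and a q-value (each as −log10) and, in narrow lists, the summit. They hold no read counts, so no count model was run. The score was not used. Folds were ranked within a list, since their levels cannot be compared between lists. Where a narrow peak's fold and p are both given, pileup and background can be solved for. Over peaks with −log10 p under 40 in the Ikaros lists of 30 min, at least 99.9% gave a whole pileup (tolerance 0.002 in −log10 p). The commonest background was reported, which need not equal the depth of the library.

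Samples were grouped by their titles. Peaks were merged on at least 1 bp. Distances run from the region centre to GENCODE M21 TSSs (GRCm38), and a promoter lay within 1 kb. H3K27ac and 0 h calls count an overlap with the whole region, in both lists unless stated. Regions are not replicates, so many class values, though not all, stand beside those of replicate 1 and replicate 2 lists alone. Tests are exact permutations over lists or library pairs. The tests over library pairs were added after the data were seen. The class counts and the share test over lists were tested on simulated data (Python 3.11.15, pandas 2.3.3, scipy 1.17.1).

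Named regions were the 5 with the highest mean fold rank in each of 4 sets (joint, joint without CHD4 at 0 h, Ikaros-only and CHD4-only), each called by the nearest protein-coding TSS. List genes were named where a region lay within 20 kb, those within 1 kb first. Sequences were taken from the first 2 regions of each set. Of the regions these rules name, 2 are not reported here. The classes, lists and rules were chosen with earlier results of these data known. Alternatives were a −log10 q or fold of at least 3, lists of equal length, 50% overlap, merging within 500 bp, each list left out, single replicates, a 3 kb promoter, H3K27ac or 0 h CHD4 in either list, genes within 50 kb, 200 bp at the summit, and exchange within the replicate block. Added later were distances from region edges, H3K27ac at the centre, and leaving out regions of very small p at a low fold.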

Additional observations from a re-analysis of the deposited data

Results flagged for a closer look

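The share of peaks with H3K27ac in both lists of the same time was higher in both CHD4 lists than in both Ikaros lists at 30 min, by 0.758 percentage points, and lower in both CHD4 lists than in both Ikaros lists at 2 h, with a difference of -5.68 points. At 0 h and 1 h the CHD4 minus Ikaros difference was 4.68 and 7.22 points. The difference between the times was not tested.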

How the results depend on the processing

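The joint and CHD4-only promoter shares had no stable order: 26.3% against 23.0% turned to 25.5% against 30.9% with equal lists, 26.1% against 27.1% at a fold of at least 3, 28.1% against 32.5% with replicate 2 alone and 25.8% against 31.5% without Ikaros replicate 1. The H3K27ac differences turned as well. With peaks of −log10 q of at least 3, which left 148 joint, 2285 Ikaros-only and 32 CHD4-only regions, the joint minus Ikaros-only difference in H3K27ac share became -4.89 percentage points. With lists cut to equal length the H3K27ac share of CHD4 minus Ikaros peaks over all times became -2.89 points (exact permutation test, adjusted p = 0.15). The cause was not tested.

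The sizes of the classes moved most. Equal lists gave 891 joint, 428 Ikaros-only and 363 CHD4-only regions, a fold of at least 3 gave 129 CHD4-only regions, replicate 1 lists alone gave 2904, 5897 and 1168, and replicate 2 lists alone gave 3222 Ikaros-only and 1387 CHD4-only regions. Leaving out 1 list gave 1424 to 2009 joint, 1662 to 5133 Ikaros-only (most without Ikaros replicate 2) and 271 to 999 CHD4-only regions (most without CHD4 replicate 2). The joint minus Ikaros-only difference in promoter share was -24.1 points at the stricter q, -39.2 with equal lists, -18.8 and -14.8 with replicate 1 and 2 alone, -22.8 at 3 kb, -22.2 from region edges and -29.7 to -17.4 with 1 list left out. The difference in H3K27ac share was 4.18 with equal lists, 8.83 and 7.94 with replicate 1 and 2 alone, 2.77 with either H3K27ac list, 7.08 at the centre and 2.62 to 12.4 with 1 list left out. The difference in CHD4 calls at 0 h was 53.4 points at the stricter q, 33.4 and 35.9 with replicate 1 and 2 alone, 54.1 with either 0 h list and 34.0 to 51 with 1 list left out. The joint minus Ikaros-only gap in fold rank was 32.1 points at the stricter q, 20.6 with equal lists, 31.5 with replicate 1 alone and 18.7 to 39.4 with 1 list left out. The joint minus CHD4-only gap was 49.3, 22.5, 21.8 and 19.0 to 25.6 in that order, 19.1 with replicate 2 alone and 16.4 at a fold of at least 3.

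Replicate numbers were shared between targets but not stated to pair cultures. Of 1113 regions in 1 Ikaros and 1 CHD4 list, 781 (70.2%) had the same replicate number in both (615 replicate 1 and 166 replicate 2, against 245 and 87 with crossed numbers). Equal numbers were the commoner, but the replicate 1 lists were the longer for both targets (9181 against 5373 peaks for Ikaros, 4081 against 3369 for CHD4). Such lengths make equal numbers commoner without any pairing. The share to be had from the lengths alone was not worked out, so no pairing is read from these counts. Exchanging targets within the replicate block left the promoter share of peaks at -11.7 points (exact permutation test, adjusted p = 0.0156) and the H3K27ac share at 1.74 points (p = 0.398), with no call changed. Without 1 list the 30 min promoter difference ran from -16.3 to -4.0 points. Within 50 kb, 2138 genes had a joint, 3023 an Ikaros-only and 422 a CHD4-only region. Depth was not known for any list, and no region can be called free of a protein.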
